A study of Caenorhabditis elegans with 3 samples.

Results

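The respiratory chain of Caenorhabditis elegans was followed through 45 nuclear genes of complexes I to IV in RNA of adult hermaphrodites. The genes were chosen by name alone: symbols of the nuo, nduf, ndua, ndub, ndus, nduv, sdha, sdhb, sdhd, ucr, cyc and cox families, with gas-1, mev-1, isp-1 and lpd-5 added. RefSeq lists 61 genes with such a name. Of these, 45 had a probe assigned to a single gene on the array, with 46 probes in all (cox-4 has 2), out of 15168 genes and 20000 probes in the table. The other 16 (among them lpd-5, nuo-3, cox-10 and cox-6B) were not analysed here. All 46 probes had a value on all 3 arrays, so no member was lost to a filter.

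The samples were RNA of hermaphrodites labelled TP11 adult w/ emb 2, in 3 preps, each hybridised on its own 2-colour array against a wild-type mixed reference RNA. The label "w/ emb" was read as carrying embryos; the code TP11, the number 2 after it and the worms' genotype and age were left unread or are not given, and neither are the stages in the reference. Values are log2 ratios of adult over reference after each array was centred on its median, so 0 is the ratio of the median probe. Adult over reference is the likely direction, taken from which channel the labels give each RNA; it is not settled, because the dyes are not named, and with the sign turned every "higher" below would read "lower". Nothing says that the preps were separate cultures, so p-values rest on the spread between these 3 preps, which may be technical. In limma, the fit used here, each probe's spread was also drawn toward that of all probes (2 residual, 8.957 prior degrees of freedom). The members' median SD was 0.45, against 0.28 over all probes. For members of wide spread, p-values and intervals can therefore be smaller than their own 3 values would give. Each prep has its own array, so array and prep cannot be told apart. In whole worms, fewer cells of a type and less RNA per cell cannot be told apart either.

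The respiratory chain sits in the inner mitochondrial membrane. Complex I takes electrons from NADH and complex II from succinate, both pass them to ubiquinone, complex III hands them to the small carrier cytochrome c, and complex IV gives them to oxygen. Most subunits are encoded in the nucleus and made in the cytosol, and some core subunits are encoded in the mitochondrial genome. In C. elegans the chain is known from mutants: reduced function of isp-1 or nuo-6 lengthens life, mev-1 mutants are short-lived and sensitive to oxygen, and gas-1 mutants are hypersensitive to volatile anaesthetics.

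The labelled stage was checked against marker genes. Of 11 measured yolk, yolk receptor and eggshell genes 7 were higher in the adults and 4 did not pass, with a median log2 ratio of 1.00. All 9 measured oocyte and germline genes were higher (median 1.77), 9 of 11 sperm genes were lower (median −0.94), 0 of 10 body wall muscle genes passed (median −0.01) and 4 of 5 larval cuticle genes were lower (median −1.502). The arrays were not equally spread: the robust SD of all ratios was 0.773 for prep 1 but 0.484 and 0.37 for the other two preps.

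In their mean over the preps the members went both ways. In limma, with Benjamini-Hochberg adjustment over all 19710 probes tested and a threshold of 0.05, 4 of the 45 genes were higher in the adults and 7 were lower. That is 24.4% of the members, against 32.0% of all probes. Higher calls made up 8.89% of members against 15.8% of all probes, and lower calls 15.6% against 16.2%. Counts near or under the shares of all probes are no result about the respiratory chain as a whole. The median of the members' mean ratios was −0.03, with a range from −0.90 for ndua-5 to 1.23 for ucr-2.3, against a median of 0.00 over all probes. The genes that were higher were ucr-2.3, sdha-2, cox-15 and nuo-5, and those that were lower were ndua-5, ndub-10, ucr-2.1, cox-5B, cyc-2.1, cox-6A and ucr-2.2. All 11 had the same sign on all 3 arrays. The calls of the 4 higher genes and of ndua-5 and ndub-10 held when any prep was left out. Without prep 2 the other 5 lower genes did not pass (adjusted p from 0.142 to 0.394 in limma), which left 2 lower calls, while ucr-1 and sdhd-1 passed as higher. In that setting 13.5% of all probes were higher and 11.9% lower. Without prep 1 the call of cox-5B ended (adjusted p = 0.0501), and that of ucr-2.2 ended without prep 3 (0.116).

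**Figure D1:**
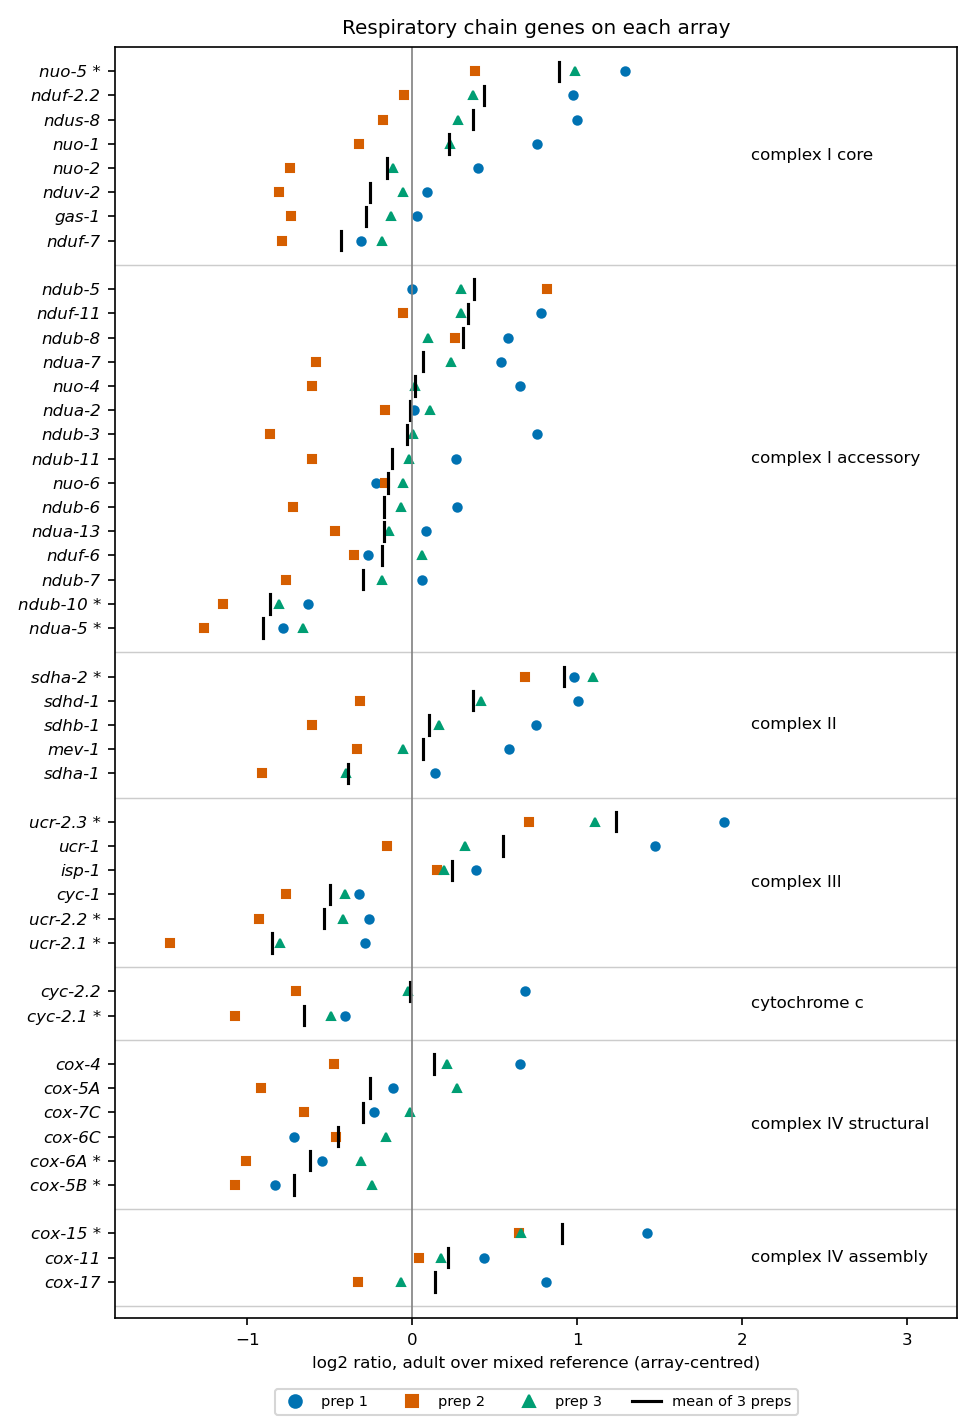
Log2 ratio of adult over mixed reference RNA (x axis) for each of the 45 genes, grouped by complex, on preps 1 to 3 (circle, square, triangle), with the mean of the 3 preps as a black bar. An asterisk marks a gene past the adjusted threshold; the prep 2 value lies left of the prep 1 value for 42 of the 45 genes.

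Complex I, the NADH dehydrogenase, was represented by 23 genes, of which 1 was higher, 2 were lower and 20 did not pass. Its catalytic core was covered by 8 genes. The NADH-oxidising module holds nuo-1, the flavin-bearing subunit that binds NADH, with its iron-sulfur partners nduv-2 and nuo-5. The gene nuo-5, the large iron-sulfur subunit, had log2 ratios of 1.29, 0.38 and 0.99 on preps 1, 2 and 3. All of its values lay above 0, and it was the 1 core gene called, 1.85-fold higher at a mean of 0.89 ± 0.46 (SD, n = 3; adjusted p = 0.0067 in limma). The other genes of the module were not above 0 on every array. The ratios of nuo-1 were 0.76, −0.32 and 0.23 (mean 0.22 ± 0.54), and those of nduv-2 were 0.09, −0.81 and −0.06 (mean −0.26 ± 0.48). Both crossed 0, and neither passed (adjusted p = 0.491 and 0.39 in limma). Without prep 2 the mean of nduv-2 was 0.02.

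The ubiquinone-reducing module was covered by gas-1 and its paralog nduf-2.2, which both encode the subunit next to the ubiquinone site, and by nuo-2, nduf-7 and ndus-8. None of the 5 genes passed. The iron-sulfur subunit gene ndus-8 had ratios of 1.00, −0.18 and 0.28, and nduf-2.2 stood at 0.97, −0.05 and 0.37. These were the highest of the module by mean (0.37 ± 0.59 and 0.43 ± 0.52), positive on preps 1 and 3 and slightly negative on prep 2. The ratios of nuo-2 were 0.40, −0.74 and −0.12 (mean −0.15 ± 0.57, and 0.14 without prep 2). For gas-1 they were 0.03, −0.74 and −0.13 (mean −0.28 ± 0.40). Of the 5, nduf-7 alone was below 0 on every array, at −0.31, −0.79 and −0.19, and its 95% interval from limma ran from −0.84 to −0.02 (adjusted p = 0.106).

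The accessory subunits of complex I surround the core and serve in its assembly and stability. Of 24 such genes with a qualifying name 15 were measured, with a median of −0.12, and 2 of these were lower. The gene ndua-5, the counterpart of the human matrix-arm subunit NDUFA5, had ratios of −0.79, −1.27 and −0.66 on preps 1, 2 and 3. It was 1.87-fold lower in the adults (mean −0.90 ± 0.32, adjusted p = 0.0037 in limma). The membrane-arm gene ndub-10 had ratios of −0.63, −1.15 and −0.81 and was 1.82-fold lower (mean −0.86 ± 0.26, adjusted p = 0.0041 in limma). Both stood below 0 on all 3 arrays, as did nuo-6 with a mean of −0.15. The means of ndua-5 and ndub-10 lay below those of the other 13 genes, which ran from −0.30 for ndub-7 to 0.37 for ndub-5. The values of ndub-7 were 0.06, −0.77 and −0.18. Those of ndub-6 were 0.27, −0.72 and −0.07, and those of ndub-3 were 0.76, −0.86 and 0.00, the widest spread of the accessory genes (SD 0.81). At the upper end nduf-11 had 0.78, −0.06 and 0.29, and ndub-8 had 0.58, 0.25 and 0.09. Alone among the genes of complex I, ndub-5 had its highest ratio on prep 2, with values of 0, 0.82 and 0.30. Its adjusted p was 0.188 in limma, and its 95% interval ran from −0.06 to 0.81. The means of ndua-7 (0.06), nuo-4 (0.02), ndua-2 (−0.02) and nduf-6 (−0.19) did not pass either, and each of these genes had values on both sides of 0. The gene nuo-6, whose partial loss lengthens life, stood at −0.22, −0.16 and −0.06, with the smallest SD of all members (0.09) and an interval from −0.52 to 0.23.

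Complex II, succinate dehydrogenase, also works in the tricarboxylic acid cycle, and all of its subunits are nuclear. All 5 of its genes with a qualifying name were measured, and 1 was higher. The flavoprotein subunit, which holds the catalytic site, has a pair of genes. The ratios of sdha-2 were 0.98, 0.68 and 1.095 on preps 1, 2 and 3, all well above 0 (mean 0.92 ± 0.21, 1.89-fold higher, adjusted p = 0.0025 in limma). Its paralog sdha-1 had 0.14, −0.91 and −0.40 (mean −0.39 ± 0.53, adjusted p = 0.198 in limma). The ranges of the paralogs over the 3 arrays did not overlap. The iron-sulfur subunit gene sdhb-1 had 0.75, −0.61 and 0.16 (mean 0.10 ± 0.68). The membrane anchor genes mev-1 and sdhd-1, which bind the complex to the membrane and contribute to its ubiquinone site, had 0.58, −0.34 and −0.06 (mean 0.06 ± 0.47) and 1.00, −0.32 and 0.42 (mean 0.37 ± 0.66). All 3 crossed 0 between arrays, and their adjusted p-values ran from 0.279 to 0.855.

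Complex III, which oxidises ubiquinol and reduces cytochrome c, held both the highest ratio of the 45 genes and lower ones. Its large core proteins line the matrix side. The core protein gene ucr-2.3 had ratios of 1.89, 0.71 and 1.11 on preps 1, 2 and 3, above 0 on every array (mean 1.23 ± 0.60, 2.35-fold higher, adjusted p = 0.0019 in limma). Its paralogs ran the other way. The gene ucr-2.1 had −0.29, −1.47 and −0.80 (mean −0.85 ± 0.59, 1.81-fold lower, adjusted p = 0.013). The third paralog, ucr-2.2, had −0.27, −0.93 and −0.42 (mean −0.54 ± 0.35, 1.45-fold lower). Its adjusted p of 0.0498 in limma lay just under the threshold, and 5 of 11 alternative settings put it above (range 0.025 to 0.394). The other core protein gene, ucr-1, reached 1.47 on prep 1 and had −0.15 and 0.32 on preps 2 and 3 (mean 0.55 ± 0.84, adjusted p = 0.151).

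The redox subunits of complex III had means closer to 0 than the core protein genes, though cyc-1 (−0.50) was near ucr-2.2 (−0.54). Like ucr-2.1, ucr-2.2 and ucr-2.3, both redox genes kept their sign on every array. The Rieske iron-sulfur protein gene isp-1 had 0.39, 0.15 and 0.19 (mean 0.24 ± 0.13, 95% interval −0.14 to 0.62). The cytochrome c1 gene cyc-1 had −0.32, −0.76 and −0.41 (mean −0.50 ± 0.23). Its adjusted p was 0.054 in limma, and it passed as lower after scaling of the arrays, after quantile normalization and without prep 1. Cytochrome c itself, the soluble carrier between complexes III and IV, is encoded by cyc-2.1 and cyc-2.2. The ratios of cyc-2.2 were 0.68, −0.71 and −0.03, with a mean of −0.02 ± 0.70 (0.33 without prep 2). Those of cyc-2.1 were −0.41, −1.07 and −0.49, below 0 on each array (mean −0.66 ± 0.36, 1.58-fold lower, adjusted p = 0.022 in limma).

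Complex IV, cytochrome c oxidase, was covered by 6 of 7 structural subunits and 3 of 8 assembly factors with a qualifying name. Among the structural subunits 2 were lower, 0 were higher and 5 of 6 had a mean below 0; without prep 2 the mean of cox-5A was 0.07. The ratios of cox-5B were −0.83, −1.08 and −0.25 (mean −0.72 ± 0.43, 1.65-fold lower, adjusted p = 0.017 in limma). For cox-6A they were −0.55, −1.01 and −0.31 (mean −0.62 ± 0.35, 1.54-fold lower, adjusted p = 0.027). Both were lowest on prep 2 and highest on prep 3. Next came cox-6C with −0.72, −0.47 and −0.16 (mean −0.45 ± 0.28, adjusted p = 0.086) and cox-7C with −0.23, −0.66 and −0.02 (mean −0.30 ± 0.33). They too were below 0 on all 3 arrays, and neither passed in limma. The gene cox-5A crossed 0 with −0.12, −0.92 and 0.27. For cox-4 the mean of its 2 probes was 0.65, −0.47 and 0.21. The first probe had 0.86, −0.50 and 0.35 (mean 0.24) and the second 0.44, −0.45 and 0.07 (mean 0.02). The probes of this gene were thus close on prep 2 and further apart on preps 1 and 3.

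The assembly factors insert heme and copper into complex IV and are not part of it. The heme A synthesis gene cox-15 had ratios of 1.42, 0.65 and 0.65, all above 0 (mean 0.91 ± 0.45, 1.88-fold higher, adjusted p = 0.0055 in limma). The copper delivery gene cox-11 had 0.44, 0.04 and 0.17 and the copper chaperone gene cox-17 had 0.81, −0.33 and −0.07, and neither passed. The median of the 3 assembly genes exceeded that of the 6 structural genes on each array, by 1.197, 0.83 and 0.26 (mean difference 0.76 ± 0.47, SD, n = 3). This grouping was compared without a test, because the lists were formed with earlier results known. Of 8 assembly genes with a qualifying name 5 were not measured.

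Paralogs of the same subunit had different ratios. On every array nduf-2.2 stood above gas-1, sdha-2 above sdha-1, ucr-2.3 above both ucr-2.2 and ucr-2.1, and cyc-2.2 above cyc-2.1. For ucr-2.3 over ucr-2.1 the difference of log2 ratios was 2.17, 2.18 and 1.91 on preps 1, 2 and 3, a 4.25-fold difference in ratio with a small spread (2.09 ± 0.15, SD, n = 3). Against ucr-2.2 it was 2.15, 1.64 and 1.53 (1.77 ± 0.33). Between the flavoprotein genes it was 0.84, 1.59 and 1.5 (1.31 ± 0.41), so that the ratio of sdha-2 was 2.48-fold that of sdha-1. The differences were smaller for nduf-2.2 over gas-1, at 0.95, 0.69 and 0.50 (0.71 ± 0.22), and for cyc-2.2 over cyc-2.1, at 1.09, 0.37 and 0.46 (0.64 ± 0.39). The genes ucr-2.2 and ucr-2.1 differed by 0.02, 0.54 and 0.38 (0.31 ± 0.27). These are 6 differences, each with the same sign on 3 of 3 arrays. They are not independent, because any difference among ucr-2.1, ucr-2.2 and ucr-2.3 follows from the others among them. An exact two-sided sign-flip permutation test gave p = 0.25 for each, the smallest p that 3 arrays allow. Members in general tended to keep their order between arrays (Pearson r from 0.659 to 0.843). The share of same-sign differences among other pairs of members was not computed, so the count is not read as a trait of paralogs. Probe sequences were not used here, so the binding of a probe to the transcript of its paralog was not tested. Ratios do not say which paralog has more RNA.

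**Figure D2:**
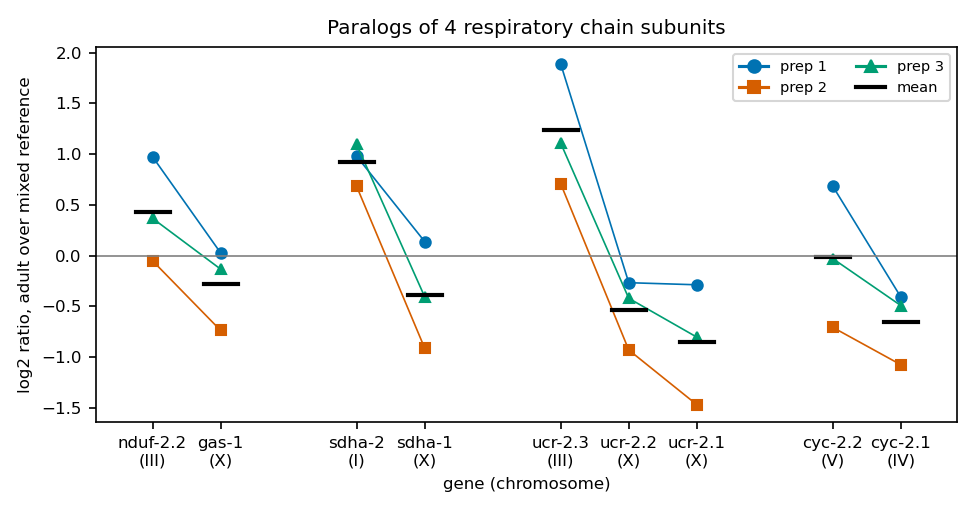
Log2 ratios of adult over mixed reference RNA (y axis) of paralogous respiratory chain genes on preps 1 to 3, with the mean as a black bar and the chromosome of each gene under its name. Lines join values of the same array, and all of them fall from the left gene to the right gene within each family.

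The paralogs with the lower ratios in the first 3 families, gas-1, sdha-1, ucr-2.1 and ucr-2.2, all lie on the X chromosome in the RefSeq table, and they are the 4 X-linked members. Their higher partners lie on autosomes: nduf-2.2 and ucr-2.3 on chromosome III and sdha-2 on chromosome I. The cytochrome c genes are both autosomal, cyc-2.2 on V and cyc-2.1 on IV. As background, many X-linked genes are repressed during part of germ cell development in C. elegans. Whether this bears on the values here was not tested. The median mean ratio of the 4 X-linked members was −0.47, against −0.02 for the 41 autosomal ones. On preps 1, 2 and 3 the medians were −0.12, −0.92 and −0.41 for the X-linked members, against 0.40, −0.47 and 0.01 for the autosomal members. Over all probes the X chromosome also had the lowest median, −0.16 for 2284 probes, against 0.00 for 13179 autosomal probes, and 5.6% of its probes were higher and 21.1% lower. Autosomes also differed among themselves, with medians from −0.10 for chromosome V (9.62% higher, 19.7% lower) to 0.15 for chromosome III (27.1% higher, 13% lower). The part of the chromosome in the paralog differences was not tested. Neighbours on a chromosome could differ widely: in the order of protein-coding genes sdha-2 is adjacent to ndua-13, an accessory subunit gene of complex I with ratios of 0.08, −0.47 and −0.14, all below those of sdha-2.

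**Figure D3:**
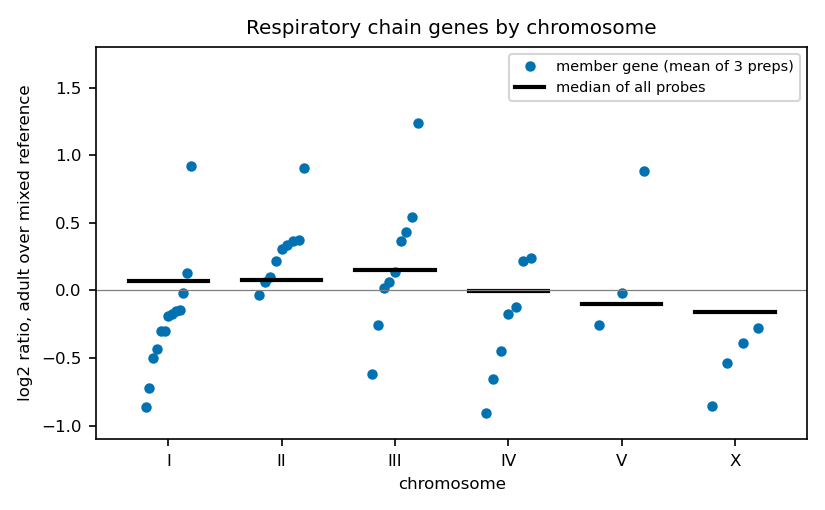
Mean log2 ratio over 3 preps (y axis) of each of the 45 genes by chromosome (x axis), with the median of all probes of the chromosome as a black bar. The 4 X-linked genes lie between −0.85 and −0.28, all under the X chromosome median of −0.16.

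The members shifted together between arrays. Their median was 0.27 on prep 1, −0.58 on prep 2 and −0.02 on prep 3, where all probes have a median of 0 by centring. Prep 1 exceeded prep 2 for 42 of 45 genes, with a median difference of 0.83, against 55.03% of all probes and 0.07. The highest value fell on prep 1 and the lowest on prep 2 for 32 genes (71.1%), against 25.2% of all probes. This held for all 6 genes of complex III, both cytochrome c genes, all 3 assembly genes and 7 of 8 core genes of complex I, but for 1 of 6 structural genes of complex IV. After scaling or quantile normalization of the arrays the count was again 32. The pattern was not particular to the members: it was found in 83.3% of the ATP synthase genes, 77.8% of the oocyte and germline markers, 71.4% of the intestinal markers and 64.7% of the tricarboxylic acid cycle genes. Shares in between were those of the adenine nucleotide carriers (66.7%), glycolysis (60%) and the yolk, yolk receptor and eggshell genes (54.5%). Assembly and import genes (50%), ubiquinone synthesis (42.9%) and mitochondrial stress genes (33.3%) followed. The pattern was found in 30% of the body wall muscle markers, 18.2% of the sperm markers and 0% of the pharyngeal muscle and larval cuticle markers. Array medians on preps 1, 2 and 3 were 2.21, 1.48 and 1.49 for the oocyte and germline markers and 0.32, −0.44 and −0.16 for the intestinal markers. They were 0.00, −0.04 and −0.06 for body wall muscle, −1.29, −1.03 and −0.59 for sperm and −0.45, 0.06 and −0.17 for pharyngeal muscle. The part of tissue makeup in the shift was not tested.

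To describe how members stood relative to each other, their own median was subtracted on each array. This lowers the spread of genes that shift together by its construction. The median SD over the 3 preps was 0.45 before, against 0.28 over all probes, and 0.23 after the subtraction. The same step took the median SD of the ATP synthase genes to 0.19, against 0.52 before it, and that of the glycolysis genes to 0.27, against 0.50. On that relative scale 14 genes were above the members' median on all 3 arrays, 14 were below it on all 3, and 17 changed side or equalled it. Of the 19710 probes tested, 12017 kept the same side of the array median on all 3 arrays, so such counts are not particular to the members. The gene nuo-5 stood 1.02, 0.96 and 1.01 above the members' median on preps 1, 2 and 3. Equally steady was ndub-7 at −0.21, −0.19 and −0.17, and the membrane-arm gene ndub-11 kept to the median itself at −0.01, −0.03 and 0.00. The genes ucr-2.3 (1.62, 1.29 and 1.13), cox-15 (1.15, 1.23 and 0.67) and sdha-2 (0.71, 1.26 and 1.11) were the other 3 with a mean above 1 or close to it. At the other end ndua-5 (−1.06, −0.68 and −0.64), ndub-10 (−0.90, −0.56 and −0.79) and ucr-2.1 (−0.56, −0.89 and −0.78) were lowest. Exceptions that varied more on this scale included ndub-5 (−0.27, 1.4 and 0.31) and cox-6C (−0.99, 0.12 and −0.14). As a description over 45 genes that share arrays, the members' ratios had a Pearson r of 0.659 for preps 1 and 2 (Spearman rho 0.665), of 0.792 for preps 1 and 3 (rho 0.785) and of 0.843 for preps 2 and 3 (rho 0.818).

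**Figure D4:**
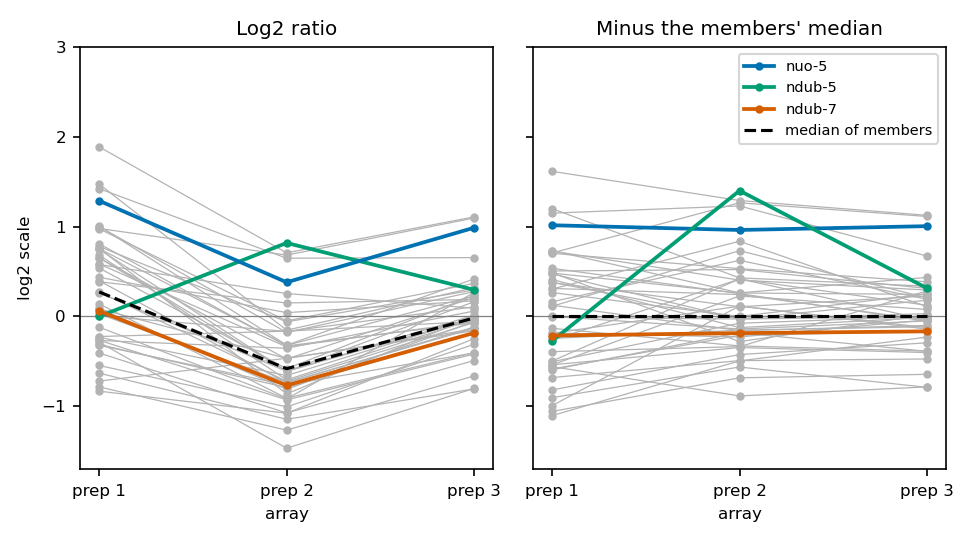
Values of the 45 genes on each array (x axis), joined by a line per gene, as log2 ratios (left) and after subtraction of the members' median on that array (right), on the same log2 axis. The dashed median dips to −0.58 on prep 2 at the left; at the right nuo-5 and ndub-7 run level, and ndub-5 peaks on prep 2.

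Genes that work next to the chain were compared by lists. Of 12 measured ATP synthase genes 3 were higher and 2 lower, with a median of 0.01 and array medians of 0.45, −0.41 and 0.16, highest on prep 1 and lowest on prep 2 as for complexes I to IV. Its highest means were those of asb-1 (1.17) and atp-1 (0.91, 1 of its 2 probes past the threshold), and its lowest were asg-2 (−1.07) and mai-1 (−0.98). Across all lists of genes that work next to the chain, glycolysis included, 6 pairs of like-named genes have an autosomal and an X-linked member. In 5 of them the autosomal gene had the higher ratio on every array, by means of 1.74 for asb-1 over asb-2, 1.70 for asg-1 over asg-2, 2.097 for gpd-4 over gpd-3, 0.87 for mai-2 over mai-1 and 0.96 for sucl-2 over sucl-1. In the other pair the X-linked pfk-1.1 stood above the autosomal pfk-1.2 on every array, with a difference of −0.56 for pfk-1.2 over pfk-1.1. All 6 pairs were added after their values were seen, so they are a description and no independent check of the members' paralogs. How often a gene stands above another on every array in other pairs was not computed. Of the 10 X-linked genes in these lists 3 were lower, 6 did not pass and 1, suca-1, was higher.

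The tricarboxylic acid cycle, which supplies NADH and succinate to the chain, had 6 of 17 genes higher, 1 lower and a median of 0.31. Its highest were the succinyl-CoA ligase genes sucl-2 (mean 1.15) and suca-1 (1.02), and its lowest were idhg-2 (−1.57, the lower one) and idh-2 (−0.35, not past the threshold). Of 7 ubiquinone synthesis genes coq-8 alone was higher (0.87 ± 0.42, adjusted p = 0.0063 in limma), and the list median was 0.44. Adenine nucleotide carriers, which exchange ADP and ATP over the inner membrane, had 2 of 3 genes lower, ant-1.1 (−0.90) and ant-1.3 (−0.77). Assembly and import genes had 2 of 10 higher, the copper chaperone gene sco-1 (1.04) and the outer membrane pore gene tomm-40 (0.66), and 2 lower, timm-23 (−0.76) and the complex I assembly gene nuaf-1 (−0.54). Of 6 mitochondrial stress genes the protease gene lonp-1 was higher (0.71), and the chaperone gene hsp-6 (0.60) had an adjusted p of 0.053; the lowest were ubl-5 (−0.39) and dve-1 (−0.32), which did not pass. Glycolysis had 4 of 15 genes higher, led by gpd-4 (1.15) and hxk-1 (0.99), and 2 lower, aldo-1 (−1.47) and gpd-3 (−0.95). Each of these counts is to be read beside the 15.8% higher and 16.2% lower of all probes. No difference between these lists and the members was tested.

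**Figure D5:**
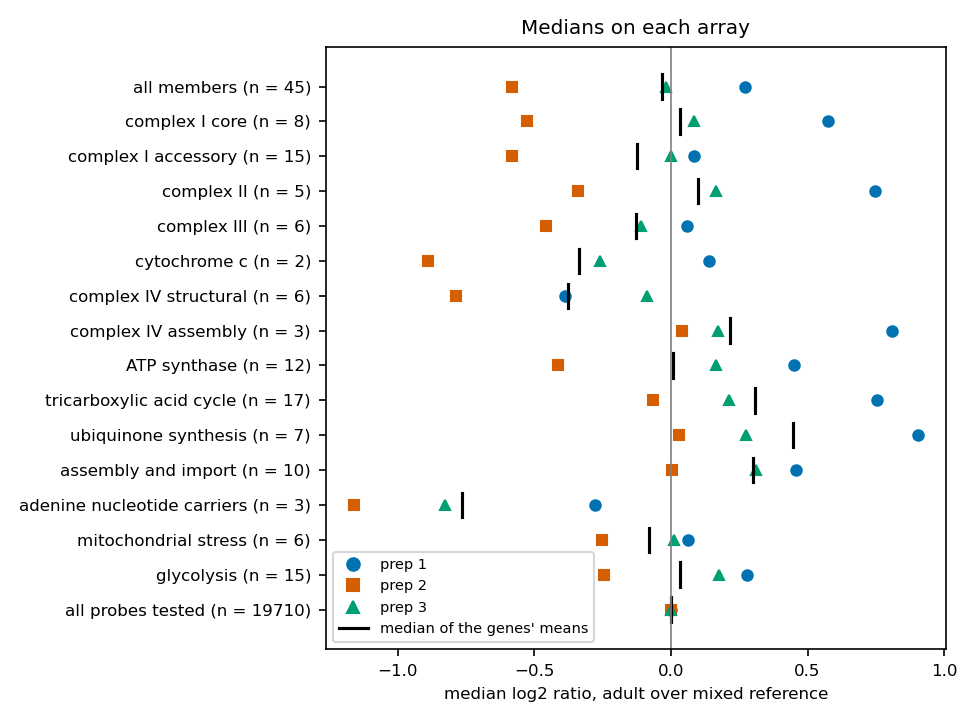
Median log2 ratio of adult over mixed reference RNA (x axis) on preps 1 to 3 for the members, their groups, related lists and all probes, with the number of genes or probes in brackets and the median of the genes' means as a black bar. For the members prep 2 lies at −0.58 and prep 1 at 0.27, and the median is 0 on every array for all probes.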

How the data were processed

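Each of 3 arrays compared adult RNA (channel 2) with a mixed reference RNA (channel 1), per the labels. The authors deposited log2 ratios for 20000 probes. The sources used here do not state the normalization, the filters or the dyes. The log base was read from the values: as log2 ratios, 100% of those under a ratio of 3 are a multiple of 0.001 within 5e-05. Column medians of the deposited log2 values were 0.0186 (prep 1), 0.0718 (prep 2) and −0.00868 (prep 3); the centring behind them is unknown. No filter on dim spots was possible without spot intensities, and the number of arrays limits the precision.

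Probes were named from the platform annotation: 15655 had 1 gene, 198 had several (named for none) and 4147 are unnamed here. Symbols and chromosomes came from the RefSeq table (WBcel235) by gene ID for all 46 member probes. The build behind the probes is not given, so no coordinates are printed.

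Arrays were centred on the median of the 19710 probes with 3 values. An intercept was fitted with limma 3.58.1 in R 4.3.3 (lmFit, eBayes; 2 residual and 8.957 prior degrees of freedom) and tested two-sided against 0 with Benjamini-Hochberg adjustment over all probes. The median standard error was 0.182. A gene with several probes has their mean and the largest adjusted p, and passes when any probe passes. The script was tested on simulated data. Every member was named. Genes of other lists were named by their 2 highest and 2 lowest means or as called; the X-linked and autosomal pairs were added after their values were seen. Members, lists and groups were chosen with earlier results of these data known. Alternatives were other normalizations, filters, priors and leaving out each prep.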

Additional observations from a re-analysis of the deposited data

How the results depend on the processing

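Over 11 alternative settings the number of higher members ran from 4 to 6. The number of lower members ran from 6 to 8, except without prep 2, where it was 2; with each prep left out in turn its range was 2 to 8. Over all probes the higher share ran from 12.5% to 19.9% and the lower share from 11.9% to 18.4%. Without prep 2 these shares were 13.5% and 11.9%. The counts of members are to be read beside these shares. In all 11 settings ucr-2.3, sdha-2, cox-15, nuo-5, ndua-5 and ndub-10 passed in the direction given, and no called gene changed sign. The call of ucr-2.2 was also lost without centring (adjusted p = 0.055 in limma), with probes on at least 2 arrays (0.055) and once the local median of probes with neighbouring IDs was subtracted (0.051), where cox-6C (0.042) and nduf-7 (0.013) passed as lower. Without prep 1 sdha-1 passed as lower (0.027). Members that did not pass changed the sign of their mean under several settings, 8 of them without prep 2, so no direction is called for them. The paralog difference of ucr-2.3 over ucr-2.1 was 2.26 after scaling and 1.84 after subtraction of that local median, which also moved nduf-2.2 over gas-1 to 0.42 and the median of X-linked probes to −0.015. Of neighbouring probes 98.8% lie on the same chromosome, so this setting removes chromosome-wide shifts by its construction. No paired analysis was possible because the samples form 1 group. Without spot intensities, what depends on dim signal could not be assessed.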
